A study of Mus musculus with 2 samples.

Results

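Macrophages that held Arg1 together with C1q complement transcripts, but few UMIs of 3 genes induced by low oxygen, made up 753 of the 19950 CD45+ cells kept from 2 single-cell libraries of MC38 tumors, and are called Arg1 macrophages here. They were chosen by raw UMIs (unique molecular identifiers, each standing for 1 captured transcript) in each barcode that passed 2 limits, no fewer than 200 genes and no more than 10% of UMIs from mitochondrial genes. A cell needed at least 10 UMIs of C1qa, C1qb and C1qc together and at least 10 of Arg1. It had to hold fewer than 5 UMIs of Selenop and Mrc1, of Hilpda, Ndrg1 and Bnip3, and of Ly6c2, Plac8 and Chil3. The limits were under 3 UMIs for Mki67 and Top2a, under 10 for Rsad2, Ifit1, Ifit2 and Ifit3, and 0 for Cd3d, Cd3e and Cd3g. The MWA library held 357 such cells of 10037 and the MWA+TIGIT library 396 of 9913. These genes chose the cells, so their levels, and every contrast with cells that fail a clause, are given as descriptions without a test.

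Both libraries came from C57BL/6 mice bearing MC38 tumors, a transplanted mouse colon carcinoma line, under the skin of both flanks. In both groups the right tumor was ablated with microwaves (MWA) at about 300 mm3, and CD45+ leukocytes of the left tumor, which was not ablated, were sorted on day 8. The MWA+TIGIT group also received an antibody against TIGIT, an inhibitory receptor of T and NK cells, from 1 day after MWA. It was given 3 times by the sample labels, while the study's methods give a larger number of injections. The study's results describe an isotype antibody for the MWA group of its tumor growth experiments. Its text on the single-cell libraries does not name one. The methods give male mice of 6 to 8 weeks and 2 to 4 minutes of ablation at 70 °C and 8 W. An untreated group was not analysed here, so both libraries share the ablation and differ by the antibody. There was 1 library per group, the number of mice behind each is not given in the sources used here, and the treatment, the library and the mice cannot be told apart. No test between the libraries was possible, and all intervals below cover counting error only.

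Arginase 1 splits arginine into ornithine and urea, and macrophages that express it draw on the arginine that T cells need. In tumors Arg1 is a known mark of macrophages recruited from monocytes, and it can be induced by IL-4, by lactate and by low oxygen. Under low oxygen, hypoxia-inducible factors bind short ACGTG elements and raise genes of glucose uptake, glycolysis and vessel growth. Hilpda, Ndrg1 and Bnip3 are common targets of these factors as well.

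The deposited matrices held 10217 and 10190 barcodes with 66152465 and 78751205 UMIs, and the MWA+TIGIT cells were the more deeply sequenced, with a median of 6838 UMIs per kept cell against 5747. The mitochondrial limit dropped 179 and 276 barcodes and the limit on genes 2 and 12. A barcode sequence was shared by both libraries in 37 cases, of which 3 were Arg1 macrophages of the MWA+TIGIT library and 0 of the MWA library. Xist, the RNA of the inactive X chromosome, was found in 80.4% and 81.9% of all kept cells, while the Y-linked genes Ddx3y, Uty, Kdm5d and Eif2s3y had 1 UMI in each library, which goes against the male mice of the methods in both groups alike. Arg1 macrophages had medians of 8500 UMIs (2281 to 17535) in the MWA library and 9779 (1129 to 21094) in the MWA+TIGIT library.

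The macrophage part of the name held in both libraries. Csf1r, the receptor of the macrophage growth factor, was found in 93.0% and 94.7% of the Arg1 macrophages and Cd68 in 95% and 98.0%. Adgre1, which codes for F4/80, was found in 68.9% and 77.0%. Defining markers of other cells were scarce. The 8 T cell markers summed to 45.9 and 41.1 CPM (UMIs of a gene per 1000000 UMIs of the class), and most of those UMIs, 88 of 140 and 109 of 160, were Il7r, which macrophages can also express. NK cell markers summed to 1.97 and 0.257 CPM, dendritic cell markers to 0.983 and 1.54 CPM, and mast cell markers were at 0. The 8 neutrophil markers summed to 34.4 and 32.4 CPM with G0s2, Cxcr2, Retnlg and Camp at 0 and the other 4 detected. Of 6 markers of epithelial tumor cells, Krt8, Krt18, Krt19 and Cldn4 were at 0 in both libraries and Epcam with MWA. Their sum was 16.4 and 17.7 CPM, against 8.51 and 7.59 CPM in Arg1-low macrophages, and nearly all of it was Cdh1, which codes for E-cadherin, with 50 and 63 UMIs. A doublet caller marked 19 of 357 and 8 of 396 Arg1 macrophages, and 8.03% and 7.93% of all kept cells.

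The second part of the name, without hypoxia genes, held only as a limit on 3 genes. Bnip3 UMIs were still present in 57.7% and 59.3% of the Arg1 macrophages, Hilpda in 24.4% and 24.0% and Ndrg1 in 11.5% and 13.9%. Summed Hilpda was 38.7 CPM in the MWA library and 32.1 CPM in the MWA+TIGIT library, close to the 42.7 and 36.8 CPM of Arg1-low macrophages, which meet every clause but hold under 10 Arg1 UMIs. In hypoxic Arg1 macrophages, which meet every clause but hold at least 10 UMIs of the 3 hypoxia genes, it was 943 and 744 CPM. Ndrg1 was also close in Arg1 and Arg1-low macrophages, at 16.4 against 17.2 CPM with MWA and 18.5 against 19.7 CPM with MWA+TIGIT. Bnip3 was higher in the Arg1 macrophages, at 116 against 78.1 CPM with MWA and 107 against 74.7 CPM with MWA+TIGIT. Likewise Selenop was found in 69.7% and 73.7% and Mrc1 in 44.0% and 40.2% of the Arg1 macrophages, since the rule allowed up to 4 UMIs.

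Arg1 macrophages took 3.56% (exact 95% interval 3.20 to 3.94) of the kept CD45+ cells of the MWA library and 3.99% (3.62 to 4.40) of the MWA+TIGIT library, a difference of 0.44 percentage points (-0.10 to 0.98). Of all C1q macrophages, the 3808 and 4241 cells with at least 10 C1q UMIs and no Cd3 UMI, they took 9.38% (8.47 to 10.3) and 9.34% (8.48 to 10.3), with a difference of -0.04 points (-1.33 to 1.25). Both differences were within counting error. Arg1-low macrophages made up 24.4% of C1q macrophages with MWA and 13.5% with MWA+TIGIT, 10.9 points fewer (interval of the difference -12.6 to -9.14). Hypoxic Arg1 macrophages made up 1.81% and 3.18% (difference 1.37 points, 0.68 to 2.07). Cells that met the other clauses with at least 10 Selenop and Mrc1 UMIs and under 10 Arg1 UMIs, called Selenop Mrc1 macrophages here, made up 12.2% and 11.9% (difference -0.31 points, -1.75 to 1.14), within counting error as well.

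The rule kept only some of the C1q macrophages with at least 10 Arg1 UMIs. All such cells, the Arg1 macrophages included, were 1313 of 3808 (34.5%, 33.0 to 36) in the MWA library and 2174 of 4241 (51.3%, 49.7 to 52.8) in the MWA+TIGIT library. With each cell thinned to 5000 UMIs, an alternative added after the data had been seen, they were 725 of 3292 (22.0%, 20.6 to 23.5) and 1266 of 3842 (33.0%, 31.5 to 34.5), in the same order, with the shallower cells left out. Arg1-positive cells that also held at least 5 Selenop and Mrc1 UMIs were 675 (17.7%) and 1349 (31.8%), while those under that limit were 638 (16.8%) and 825 (19.5%). Summed over all C1q macrophages, Arg1 stood at 1214 CPM and 1895 CPM (log2 ratio 0.64, 0.63 to 0.66). Within the Arg1 macrophages it stood at 2839 and 3225 CPM (0.18, 0.14 to 0.22), with medians of 19 and 24 UMIs per cell and ranges of 10 to 152 and 10 to 135.

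The equal shares depended on the fixed UMI limits. When every clause was applied to cells thinned to 5000 UMIs, 12.1% and 18.4% of C1q macrophages met the rule. Of the single clauses, the limit on Selenop and Mrc1 alone kept out 433 cells of the MWA library and 809 of the MWA+TIGIT library, and the limit on the hypoxia genes alone 189 and 284. The Arg1 minimum alone kept out 929 and 574 cells. Cells just inside the Arg1 limit, with 10 or 11 UMIs, numbered 51 and 39 and held 42.7 and 37.7 CPM of Olr1, while the 60 and 48 cells just outside, with 8 or 9 UMIs, held 6.66 and 5.12 CPM. For Slc7a2 the values were 67.8 and 122 CPM inside and 82.1 and 94.8 CPM outside, in opposite orders in the 2 libraries. The Olr1 values just outside rest on few UMIs, and no intervals were computed for these small groups. Whether either gene steps at the limit was not tested.

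**Figure D1:**
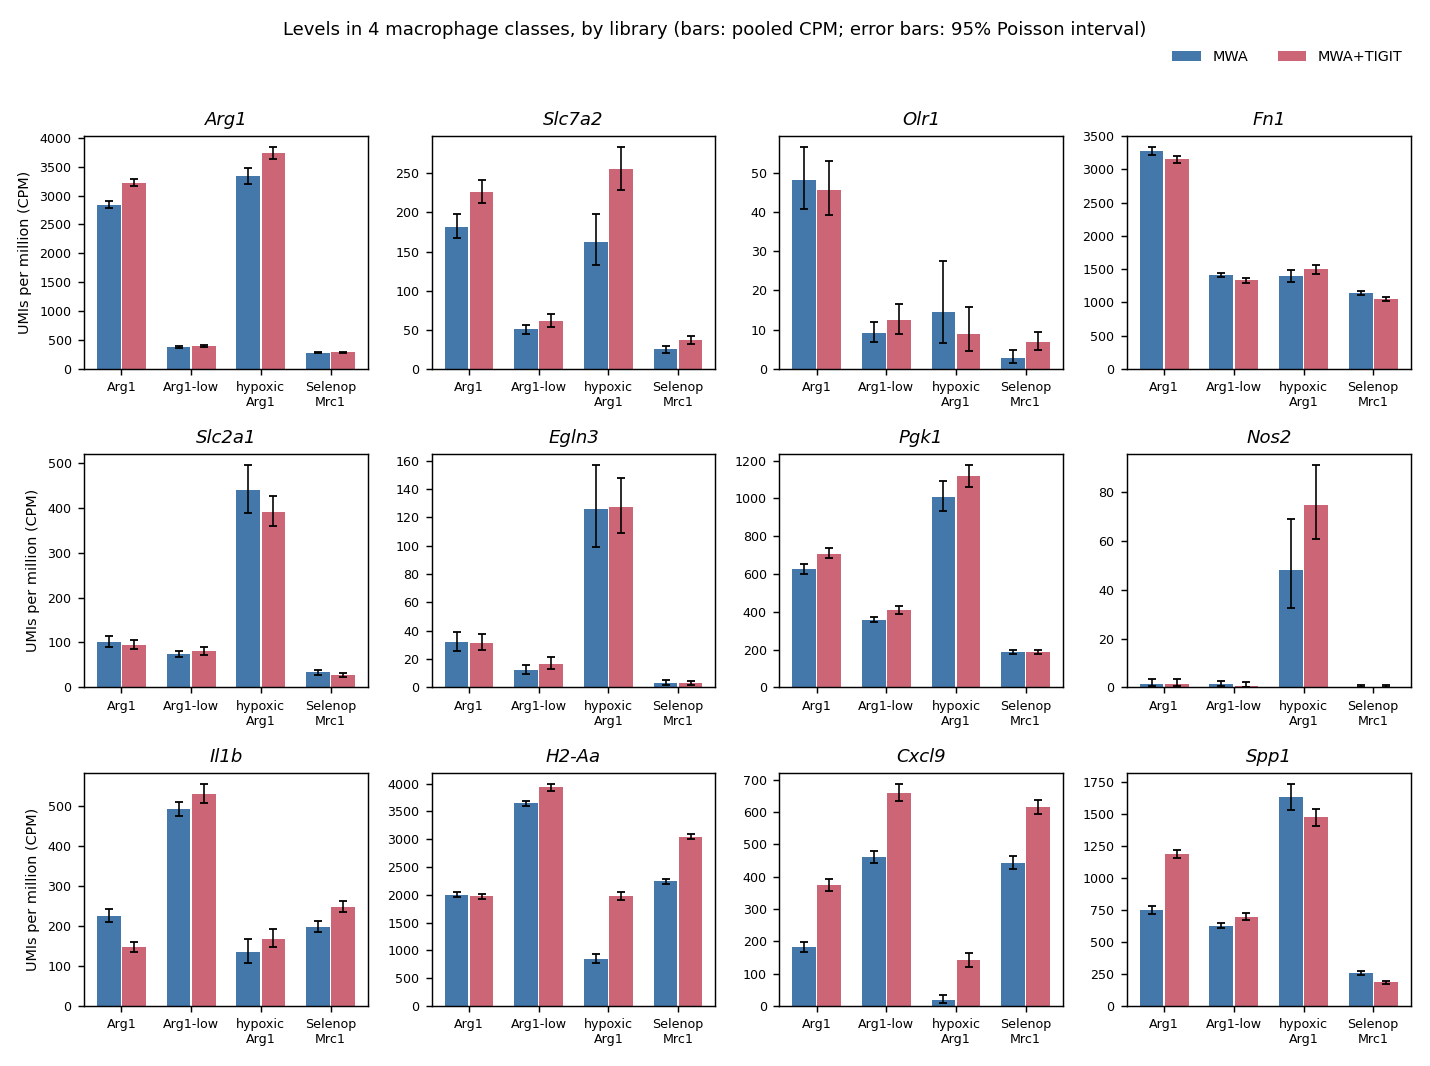
Levels of 12 genes in Arg1, Arg1-low, hypoxic Arg1 and Selenop Mrc1 macrophages of the MWA (blue) and MWA+TIGIT (red) libraries. Bars give CPM (vertical axes from 0) and error bars exact 95% Poisson intervals, which cover counting error only; Fn1 is at 3278 and 3152 CPM in Arg1 macrophages and at most at 1496 CPM in the other classes.

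Slc7a2 and Olr1, given as further marks of these cells, were found in part of them. Arg1 itself lies at chr10:24915221-24927484 (minus strand of GRCm38). Slc7a2 (chr8:40862396-40922308, plus strand) codes for a cationic amino acid transporter that brings arginine into the cell. Its level in Arg1 macrophages was 182 CPM with MWA and 227 CPM with MWA+TIGIT, in hypoxic Arg1 macrophages 163 and 256 CPM, in Arg1-low macrophages 50.4 and 61.5 CPM and in Selenop Mrc1 macrophages 24.7 and 36.4 CPM. Both Arg1 classes were therefore above both others, and the log2 ratio of Arg1 to hypoxic Arg1 macrophages was 0.16 (-0.15 to 0.48) and -0.17 (-0.36 to 0.01). Slc7a2 was detected in 49.9% and 54.3% of the Arg1 macrophages. With cells thinned to 2000 UMIs it was detected in 23.8% and 29.2% of them, in 7.79% and 11% of Arg1-low macrophages and in 0.212% and 0.551% of cells with at least 3 Cd3 UMIs, which should lack it. Thinning left out 0 and 5, 95 and 92, and 454 and 248 shallower cells of these classes, whose medians were 8500 and 9779, 6383 and 6113, and 3455 and 3634 UMIs.

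Olr1 (chr6:129485244-129507165, minus strand), a scavenger receptor for oxidized low density lipoprotein, was highest in the Arg1 macrophages of the 4 classes but was found in fewer of their cells, 19% and 22.5%. It stood at 48.2 and 45.7 CPM there, at 9.20 and 12.4 CPM in Arg1-low, at 14.5 and 8.99 CPM in hypoxic Arg1 and at 2.87 and 6.81 CPM in Selenop Mrc1 macrophages. After thinning, 5.88% and 6.39% of the Arg1 macrophages held it, against 2.16% and 2.49% of Arg1-low macrophages and 0.176% and 0.241% of Cd3-positive cells. Fn1 (chr1:71585520-71653200, minus strand), which codes for the matrix protein fibronectin, was likewise highest in Arg1 and lowest in Selenop Mrc1 macrophages, with 3278 and 3152 CPM in Arg1 macrophages, 1415 and 1333 in Arg1-low, 1394 and 1496 in hypoxic Arg1 and 1141 and 1046 CPM in Selenop Mrc1 macrophages. Msr1, another scavenger receptor, stood at 481 and 548 CPM in Arg1 against 250.2 and 257 CPM in Arg1-low macrophages.

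Within the Arg1 macrophages these genes also moved with the Arg1 level. Among cells thinned to 5000 UMIs, those with 20 to 49 Arg1 UMIs (72 and 88 cells) held more Slc7a2 than those with 10 to 19 (131 and 152 cells), at 289 against 211 CPM with MWA and 364 against 228 CPM with MWA+TIGIT. Their log2 ratios were 0.46 (0.07 to 0.83) and 0.68 (0.36 to 0.99). Olr1 was at 88.9 against 41.2 CPM and 77.3 against 38.2 CPM. Fn1 was at 4186 against 3148 CPM and 4318 against 3146 CPM. Thbs1, which codes for thrombospondin 1, went the other way, with log2 ratios of -0.66 (-1.29 to -0.07) and -1.25 (-2.08 to -0.49). Arg1 chose the cells, so these are descriptions of cells within a library, which are not replicates.

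Against Arg1-low macrophages few genes differed. Of 4843 genes with enough UMIs and outside the rule, 17 were past 2-fold higher in both libraries (0.351%) and 11 past 2-fold lower (0.227%). Beside Slc7a2, Olr1 and Fn1, the higher genes included F13a1, coagulation factor XIII of monocytes and macrophages, at 231 against 86.7 CPM with MWA and 305 against 84.3 CPM with MWA+TIGIT. Ltc4s, the leukotriene C4 synthase, was at 162 against 62.7 CPM and 158 against 45.5 CPM. Also higher in both libraries were Cbr2, a carbonyl reductase (log2 ratios 1.63 and 1.55), Hopx, a homeodomain cofactor (1.93 and 1.46), Rhoc, a small GTPase (1.29 and 1.37), and Mgst1, a glutathione transferase (1.13 and 1.08).

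The 11 genes past 2-fold lower than in Arg1-low macrophages held 1 of the 20 inflammatory genes tested. It was Il1b, the inflammatory cytokine interleukin 1 beta, which stood at 225 against 492 CPM with MWA and 147 against 531 CPM with MWA+TIGIT. Itgax, the integrin CD11c, stood at 22.0 against 53.5 CPM and 26.2 against 86.3 CPM. Slamf7, a receptor of activated leukocytes, had log2 ratios of -1.20 and -1.30, and the lectin Mgl2 of -1.68 and -1.23. Of 16 antigen presentation genes measured well enough, 0 were past 2-fold in both libraries, but 12 had intervals below 0 in both, beside 9.27% of all genes tested, and the list's medians were -0.53 and -0.49 beside 0.006 and 0.012 over all genes. H2-Aa, an MHC class II chain, was at 2000 and 1971 CPM in Arg1 macrophages against 3648 and 3935 CPM in Arg1-low macrophages, and Cd74, the invariant chain, at 5598 and 6099 against 9040 and 9963 CPM. Cxcl9, a chemokine induced by interferon gamma that attracts T cells, was at 181 and 374 CPM against 460 and 661 CPM. The inflammatory list as a whole was mixed, with 6 intervals above 0 in both libraries and 5 below, and medians of 0.07 and -0.27. Of 15 immediate early genes, which tissue digestion can induce, 9 had intervals below 0 in both libraries and 0 above. Of all genes tested 9.27% lay below 0 and 9.11% above. Depth moved with this contrast, since Arg1-low macrophages had medians of 6383 and 6113 UMIs, and its part in the result was not tested.

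Hypoxia and glycolysis genes outside the rule placed the Arg1 macrophages between the other classes. Of the 34 such genes in the matrix, 28 passed the limit on low counts in the comparison with Arg1-low macrophages. Of these 0 were past 2-fold in both libraries, and 23 had intervals above 0 in both, beside 9.11% of all genes tested, with medians of 0.50 and 0.57. Egln3, the oxygen sensor that marks hypoxia-inducible factors for decay, was at 31.8 against 12.3 CPM with MWA and 31.3 against 16.6 CPM with MWA+TIGIT. Pgk1, a glycolytic kinase, was at 627 against 359 CPM and 708 against 411 CPM, and Ldha, which makes lactate, at 1139 against 729 CPM and 1182 against 768 CPM. Slc2a1, the glucose transporter GLUT1, lay closer, at 102 against 73.6 CPM and 94.2 against 80.1 CPM. Vegfa, the vessel growth factor, was at 116 against 99.5 CPM and 97.3 against 101 CPM, with an interval that held 0 in the MWA+TIGIT library.

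Against hypoxic Arg1 macrophages 139 of 4802 genes were past 2-fold higher (2.89%) and 117 lower (2.44%), but with TMM scaling, which centres the ratios on the bulk of the genes and moved the log2 ratios by 0.17 and 0.14, the split was 75 higher and 155 lower. The hypoxia and glycolysis list had 14 of 32 genes lower and 0 higher, with medians of -0.76 and -0.97 beside 0.24 and 0.16 over all genes tested. The rule set the hypoxia level apart between these classes, so this direction is no finding. The sizes differed within the list, with Slc2a1 at 102 against 440 CPM with MWA and 94.2 against 391 CPM with MWA+TIGIT. Ero1l, the oxidase of the endoplasmic reticulum, was at 95.1 against 383 CPM and 95.5 against 422 CPM. Egln3 was at 31.8 against 126 CPM and 31.3 against 127 CPM. By contrast Pgk1 and Ldha were nearer in both classes, as the plot of the list shows.

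**Figure D2:**
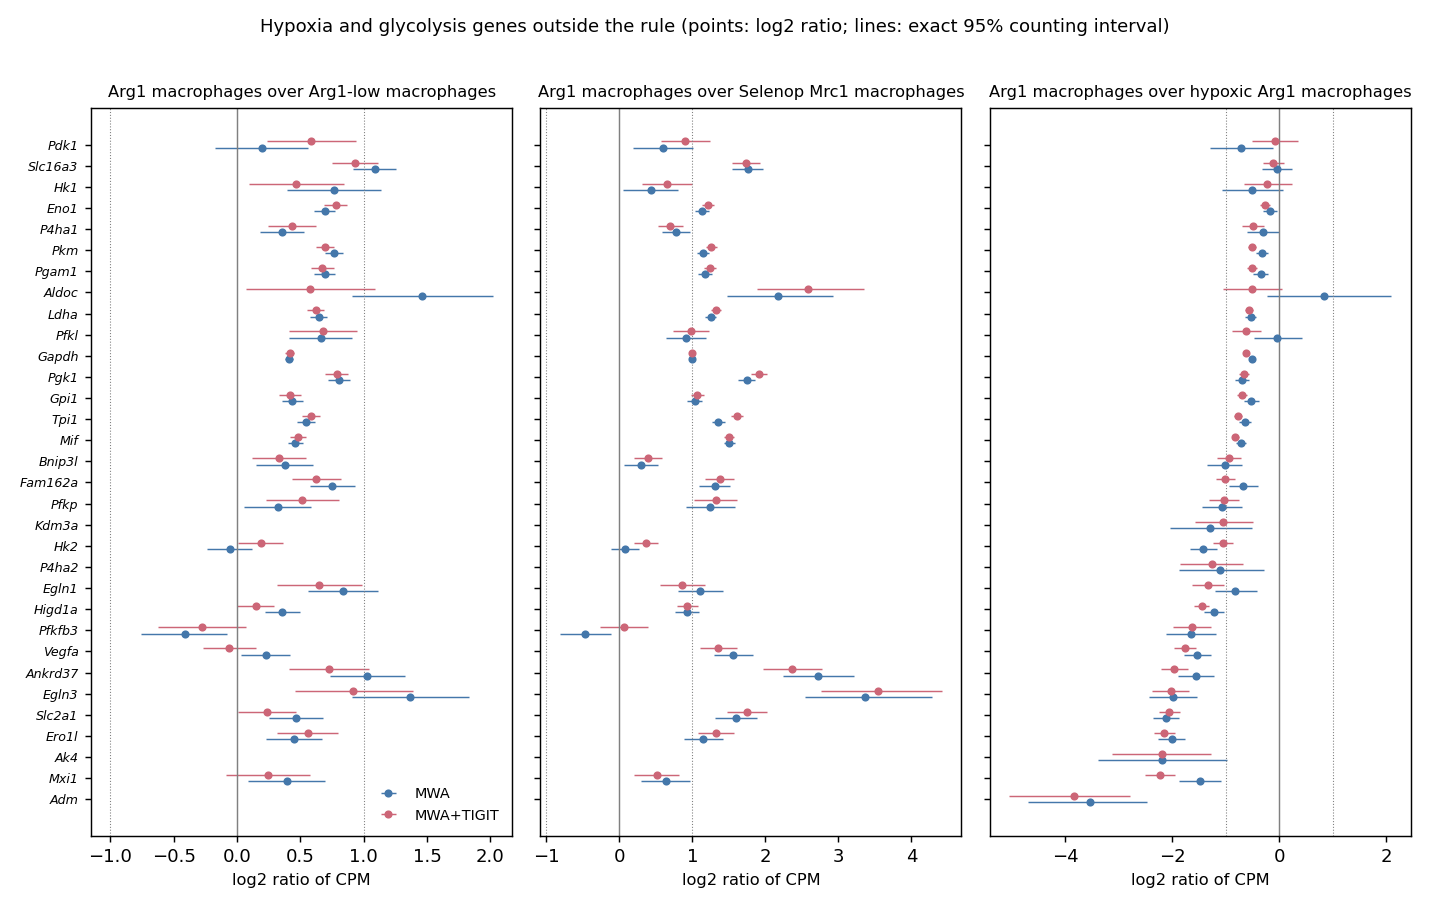
Log2 ratios of CPM (horizontal axes) of hypoxia and glycolysis genes outside the rule in Arg1 macrophages over Arg1-low, Selenop Mrc1 and hypoxic Arg1 macrophages, for the MWA (blue) and MWA+TIGIT (red) libraries. Points are ratios, lines exact 95% counting intervals and dotted lines 2-fold; most points lie above 0 in the first 2 panels and at or below 0 in the third.

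Outside the hypoxia list, hypoxic Arg1 macrophages also held more of other genes than the Arg1 macrophages did. Mmp12, the macrophage elastase, was at 53.8 against 457 CPM with MWA and 35.2 against 584 CPM with MWA+TIGIT. Nos2, the inducible nitric oxide synthase that competes with arginase for arginine, had only 4 and 6 UMIs in the Arg1 macrophages (1.31 and 1.54 CPM) and stood at 48.3 and 74.9 CPM in the hypoxic ones. Gatm, another enzyme that uses arginine, went the other way, at 446 against 166 CPM and 708 against 316 CPM. Of 10 iron and heme genes 4 were lower in the Arg1 macrophages and 1, Hebp1, was higher, and of 19 lipid handling genes 5 were lower and 1, Ch25h, was higher. Among them Hmox1, heme oxygenase, was at 200 against 943 CPM and 196 against 640 CPM. Mt1 stood at 1320 against 4900 CPM and 1029 against 3345 CPM, and Plin2, which coats lipid droplets, at 205 against 710 CPM and 223 against 689 CPM. Cd36, a fatty acid transporter, was at 22.9 against 101 CPM and 23.1 against 97.4 CPM, and Cd274, the checkpoint ligand PD-L1, at 25.2 against 58.0 CPM and 32.4 against 112 CPM. Other genes lower in Arg1 macrophages were Mt2 (log2 ratios -2.54 and -2.46), Il7r (-2.67 and -2.41) and Fbxo32, part of a ubiquitin ligase (-2.05 and -2.69).

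The genes higher in Arg1 than in hypoxic Arg1 macrophages included 1 of 7 monocyte genes outside the rule and 2 of 16 chemokine genes. The monocyte list had medians of 0.77 and 0.62, beside 0.24 and 0.16 over all genes tested. The chemokine list did not lean the same way, with medians of 0.06 and -0.10. Ccr2, the receptor by which monocytes leave the blood, was at 307 against 99.8 CPM with MWA and 280 against 78.7 CPM with MWA+TIGIT. Ccl12, one of its ligands, was at 620 against 75.7 CPM and 397 against 128 CPM. Cxcl9 was at 181 against 19.3 CPM and 374 against 141 CPM. Naaa, a lysosomal amidase, had log2 ratios of 2.87 and 1.77, Gna15, a G protein subunit, of 2.72 and 2.09, and Ccnd1, cyclin D1, of 2.12 and 1.62. Pou2f2, a transcription factor (2.03 and 1.65), Ptgs1, a cyclooxygenase (1.55 and 1.93), and the lectin Cd302 (1.59 and 1.54) were also higher. H2-Aa was at 2000 against 850 CPM with MWA and at 1971 against 1973 CPM with MWA+TIGIT. The hypoxic class of the MWA library held 69 cells against 135 in the MWA+TIGIT library, so its values are the least precise.

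Against Selenop Mrc1 macrophages, 78 of 5188 genes were past 2-fold higher (1.5%) and 83 lower (1.6%), and with TMM scaling, which moved the log2 ratios by -0.21 and -0.17, 103 were higher and 56 lower. Of 28 hypoxia and glycolysis genes 17 were among the higher ones, with medians of 1.15 and 1.25 beside -0.19 and -0.17 over all genes. Both classes had the same limit on Hilpda, Ndrg1 and Bnip3, but the rule set them apart by Arg1 as well as by Selenop and Mrc1. The limit counts raw UMIs, and Selenop Mrc1 macrophages were deeper, with medians of 9436.5 and 10801 UMIs against 8500 and 9779. The part of the Arg1 clause and of depth in this difference was not tested. Egln3 was at 31.8 against 3.09 CPM with MWA and 31.3 against 2.69 CPM with MWA+TIGIT, Vegfa at 116 against 39.5 CPM and 97.3 against 38.0 CPM, and Slc2a1 at 102 against 33.6 CPM and 94.2 against 28.2 CPM. The 3 genes of the hypoxia limit also differed below it. Bnip3 was at 116 against 41.1 CPM with MWA and 107 against 43.0 CPM with MWA+TIGIT. Hilpda was at 38.7 against 20.5 CPM and 32.1 against 13.6 CPM, and Ndrg1 at 16.4 against 7.07 CPM and 18.5 against 3.05 CPM. Thus the Arg1 and Selenop Mrc1 classes shared the limit but were not matched on its 3 genes, and differed in other glucose and oxygen genes as well. Spp1, osteopontin, was at 751 against 257 CPM and 1188 against 185 CPM. Ass1, which makes arginine from citrulline by way of argininosuccinate, was at 77.7 against 19.7 CPM and 93.2 against 25.6 CPM. Adam8, a metalloprotease, was at 264 against 43.1 CPM and 183 against 34.6 CPM, and the lectins Clec4d and Clec4e had log2 ratios of 2.52 and 2.11 with MWA and 2.13 and 2.09 with MWA+TIGIT. AA467197 was at 813 against 65.1 CPM and 761 against 77.6 CPM, and Hopx (log2 ratios 3.04 and 2.78), Hspb1 (2.97 and 3.40) and Ankrd37 (2.72 and 2.36) were also higher. Hspb1 was found in 15 of 357 and 25 of 396 Arg1 macrophages, with 72.6% and 87.8% of its UMIs in 5 cells, and its ratios were 4.06 (2.61 to 6.00) and 3.66 (2.33 to 5.35) without the 5 top cells of each class.

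Genes of tissue macrophages lay on the other side. Of 13 resident macrophage genes outside the rule, 4 were past 2-fold lower in Arg1 macrophages, namely Gas6, Maf, Cx3cr1 and Ccl8, and 0 were higher. Cx3cr1, the fractalkine receptor, was at 457 against 1069 CPM with MWA and 442 against 1017 CPM with MWA+TIGIT. Ccl8, a chemokine, was at 57.0 against 346 CPM and 67.0 against 455 CPM, and Maf, a transcription factor of resident macrophages, at 166 against 426 CPM and 169 against 432 CPM. Of 13 interferon gamma induced genes 3 were past 2-fold lower and 12 had intervals below 0 in both libraries, beside 25.9% of all genes tested, with medians of -0.84 and -0.92 beside -0.19 and -0.17. Other lower genes were Gpr34, a lipid receptor (log2 ratios -2.27 and -2.55), Igfbp4, which binds insulin-like growth factors (-1.99 and -2.20), and Fcrls, an Fc receptor-like protein (-1.79 and -1.79). Marcks, a substrate of protein kinase C (-1.55 and -1.81), and Gbp7, a guanylate-binding protein (-1.50 and -1.71), were lower as well. Against the other classes the 13 resident macrophage genes did not lean this way. Against Arg1-low macrophages 4 had intervals above 0 in both libraries and 4 below, beside 9.11% and 9.27% of all genes tested. Cbr2, one of the list, was past 2-fold higher there. Against hypoxic Arg1 macrophages 7 lay above 0 and 1 below, beside 18% and 8.48%. There Cbr2 and Stab1 were past 2-fold higher.

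The Arg1 macrophages were not uniform in hypoxia genes. By their UMIs of Hilpda, Ndrg1 and Bnip3, 113 cells of the MWA library and 109 of the MWA+TIGIT library had 0, 156 and 183 had 1 to 2, and 88 and 104 had 3 to 4. Egln3 was at 13.3, 30.7 and 57.5 CPM over these steps with MWA and at 12, 35.5 and 42.6 CPM with MWA+TIGIT. Pgk1 was at 503, 606 and 822 CPM and at 510, 689 and 935 CPM, so both genes climbed with the 3 chosen genes below the limit of the rule. The steps are raw UMIs of genes of the rule, without thinning, so these values are descriptions. The part of depth in them was not tested. Vegfa was at 72.4, 123 and 162 CPM with MWA and at 71.9, 83.9 and 146 CPM with MWA+TIGIT. Slc2a1 was at 64.2, 101 and 150 CPM with MWA, while with MWA+TIGIT it was at 83.8 and 81.2 CPM and reached 128 CPM only at 3 to 4. Of the hypoxia and glycolysis genes, 30 of 31 and 28 of 30 were higher at 3 to 4 than at 0 UMIs, with intervals above 0 for 24 and 25 and medians of 0.65 and 0.75. Over all genes with at least 20 UMIs in these cells, 41.6% and 39.4% were higher, 4.14% and 4.41% had intervals above 0 and the medians were -0.09 and -0.10. Of 14 interferon gamma induced genes 2 and 3 were higher, with medians of -0.58 and -0.52. Slc7a2 was nearly level with MWA, at 174, 179 and 197 CPM, and at 186, 240 and 241 CPM with MWA+TIGIT. Cxcl9 was at 184, 188 and 166 CPM with MWA and at 511, 412 and 172 CPM with MWA+TIGIT, and this difference between the libraries was not tested. Just inside the limit, with 4 UMIs of the 3 genes, lay 34 and 45 cells, and just outside it, with 5, lay 30 and 44.

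**Figure D3:**
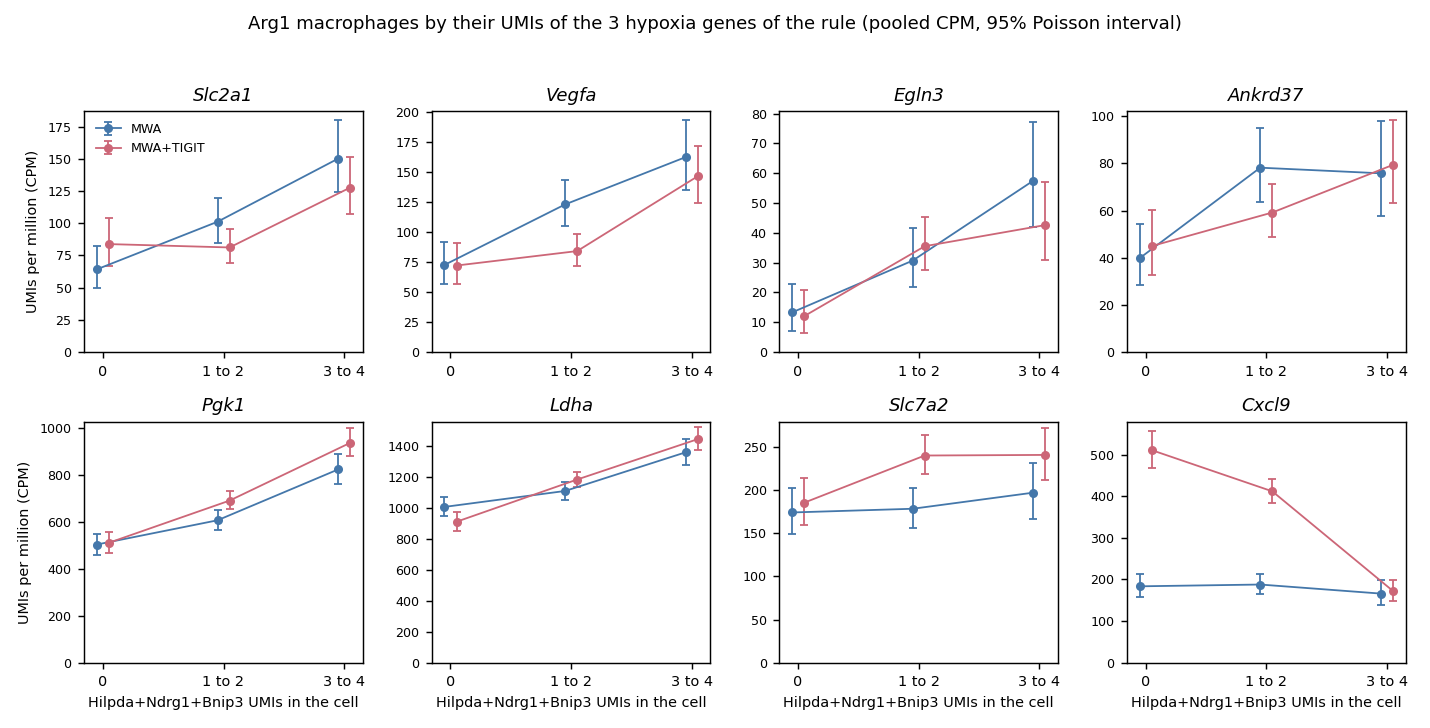
Levels of 8 genes (CPM, vertical axes) in Arg1 macrophages with 0, 1 to 2 and 3 to 4 UMIs of Hilpda, Ndrg1 and Bnip3 together (horizontal axes), for MWA (blue) and MWA+TIGIT (red). Points are pooled values and bars exact 95% Poisson intervals; Egln3, Pgk1 and Ldha are higher at 3 to 4 than at 0 UMIs in both libraries, and Cxcl9 is lower there with MWA+TIGIT.

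The promoter windows of hypoxia genes are shown as examples of this list, whose levels differed between the Arg1 and Selenop Mrc1 macrophages. Each window is the 250 bases before the start of the gene (RefSeq, GRCm38.p6), written 5′ to 3′ on the gene's strand, with the letters ACGTG, or CACGT where it lies on the opposite strand, in capitals. Slc2a1 (chr4:119108495-119108744, plus strand) had 1 match, Ankrd37, an ankyrin repeat protein (chr8:45999851-46000100, minus strand), had 2, Egln3 (chr12:54203875-54204124, minus strand) had 1 and Pgk1 (chrX:106186850-106187099, plus strand) had 2. Olr1 (chr6:129507166-129507415, minus strand), which was not higher in the hypoxic class, is set beside them and had 0.
Slc2a1: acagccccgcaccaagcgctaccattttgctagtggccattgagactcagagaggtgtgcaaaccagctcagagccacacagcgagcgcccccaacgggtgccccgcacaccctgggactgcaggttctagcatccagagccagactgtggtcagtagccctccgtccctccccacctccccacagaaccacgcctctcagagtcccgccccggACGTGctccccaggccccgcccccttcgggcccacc
Ankrd37: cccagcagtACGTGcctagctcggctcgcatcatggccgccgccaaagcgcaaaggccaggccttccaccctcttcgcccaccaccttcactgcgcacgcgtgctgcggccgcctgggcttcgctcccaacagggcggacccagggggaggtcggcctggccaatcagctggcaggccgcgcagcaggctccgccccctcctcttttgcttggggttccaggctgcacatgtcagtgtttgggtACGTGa
Egln3: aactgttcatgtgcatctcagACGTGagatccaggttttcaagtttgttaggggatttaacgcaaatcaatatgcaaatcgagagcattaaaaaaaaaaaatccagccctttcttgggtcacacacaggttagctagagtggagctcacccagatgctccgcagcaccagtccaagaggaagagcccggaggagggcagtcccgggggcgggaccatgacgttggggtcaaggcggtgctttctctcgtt
Pgk1: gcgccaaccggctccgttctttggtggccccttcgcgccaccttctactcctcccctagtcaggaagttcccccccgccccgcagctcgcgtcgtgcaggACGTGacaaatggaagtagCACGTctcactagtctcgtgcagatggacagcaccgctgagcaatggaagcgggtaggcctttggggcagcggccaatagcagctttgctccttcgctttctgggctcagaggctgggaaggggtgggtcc
Olr1: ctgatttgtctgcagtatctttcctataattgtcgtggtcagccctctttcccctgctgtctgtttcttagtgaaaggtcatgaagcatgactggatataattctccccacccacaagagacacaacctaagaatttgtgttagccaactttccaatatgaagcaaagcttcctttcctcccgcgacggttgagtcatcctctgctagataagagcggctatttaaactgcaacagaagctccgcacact
At least 1 match lay in the windows of 18 of the 32 hypoxia and glycolysis genes with an entry (56.3%). Counted by window, the share was 16.6% of all 32851 windows of this length. Counted by gene, as for the list, it was 18.5% of all 27025 genes with a window. Over the 3876 genes tested against the hypoxic class that had a window it was 27.2%. It was 37.6% in the genes lower in Arg1 than in hypoxic Arg1 macrophages (35 of 93) and 25% in the higher ones (27 of 108). Against Selenop Mrc1 macrophages it was 37.5% in the higher (24 of 64) and 20.9% in the lower genes (14 of 67), and against Arg1-low macrophages 35.7% (5 of 14) and 33.3% (3 of 9). The genes lower than in hypoxic Arg1 macrophages, with or without a window, included 14 of the hypoxia and glycolysis list. Those higher than in Selenop Mrc1 macrophages included 17. These shares are therefore not independent of the share in the list, and shares without its genes were not computed. A match is a run of letters and does not show binding.

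Between the libraries, 57 of 4959 genes were past 1.5-fold higher in the Arg1 macrophages of the MWA+TIGIT library (1.15%) and 68 past 1.5-fold lower (1.37%), by size alone. Of the genes that set the cells apart, Fn1 at 3278 and 3152 CPM (log2 ratio -0.06, -0.09 to -0.02) and Olr1 at 48.2 and 45.7 CPM (-0.08, -0.40 to 0.25) were near level. Slc7a2 was higher with MWA+TIGIT but under 1.5-fold, at 182 and 227 CPM (0.32, 0.16 to 0.47). Of 28 hypoxia and glycolysis genes and of 16 antigen presentation genes, 0 were past 1.5-fold in either direction, beside the 1.15% and 1.37% of all genes. By intervals, 9 of the hypoxia and glycolysis genes lay above 0 and 2 below, with a median of 0.02. Of the antigen presentation genes 7 lay above 0 and 0 below, with a median of 0.08. Over all genes tested 9.26% lay above 0 and 7.38% below, with a median of 0.02. H2-Aa was at 2000 and 1971 CPM. In bulk sums such as these, more cells with a transcript and more transcripts per cell cannot be told apart, so the cells with a UMI are given below where a few cells carried a gene.

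**Figure D4:**
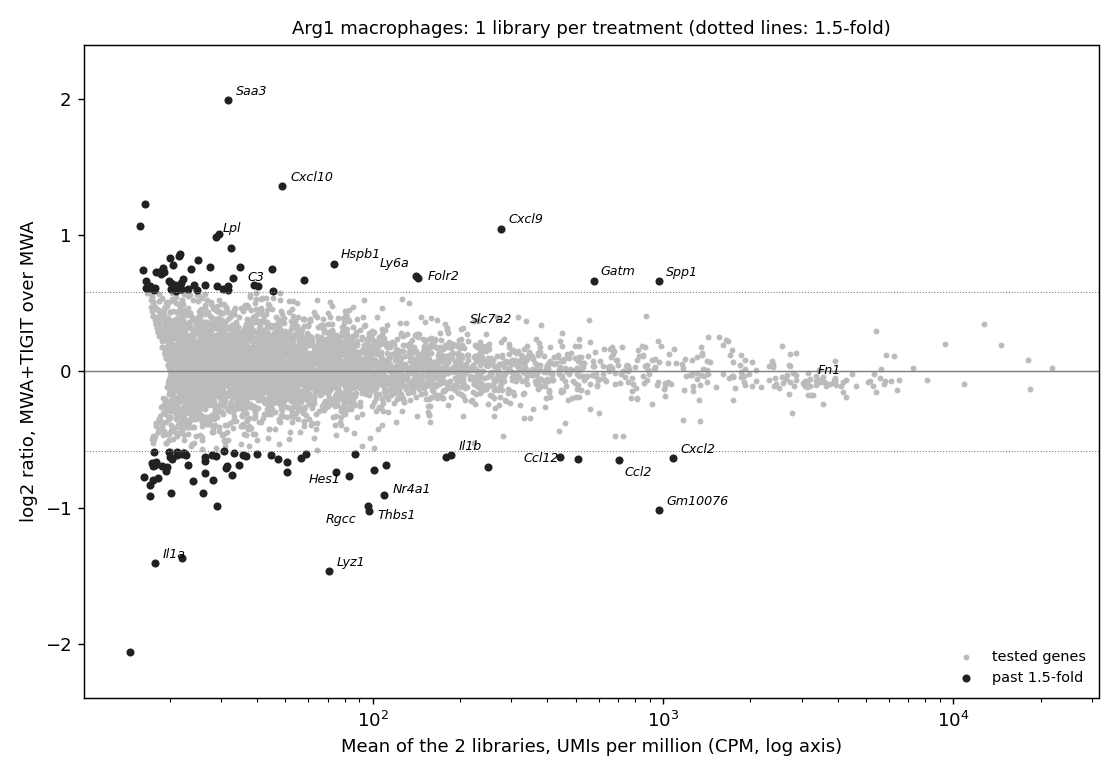
Log2 ratio of CPM in Arg1 macrophages, MWA+TIGIT over MWA (vertical axis), against the mean CPM of the 2 libraries (horizontal axis, log scale), 1 point per tested gene, with genes past 1.5-fold (dotted lines) in black. Saa3, Cxcl10 and Cxcl9 are among the highest and Lyz1, Rgcc and Thbs1 among the lowest of the named genes; Rep15 at -5.81 lies below the axis.

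Among the higher genes were chemokines of interferon gamma and an acute-phase gene, each carried by few cells. Saa3, serum amyloid A3, was at 12.8 CPM with MWA and 50.8 CPM with MWA+TIGIT (log2 ratio 1.99, 1.49 to 2.53), found in 8 of 357 and 30 of 396 cells, and 89.7% and 49.5% of its UMIs lay in 5 cells. With every clause applied after thinning its ratio was 1.12, and with at least 20 Arg1 UMIs 1.14. Cxcl9 was at 181 and 374 CPM (1.05, 0.90 to 1.19), in 57 and 81 cells, with 52.4% and 41.5% of its UMIs in 5 cells, and the ratio was 1.34 without the 5 top cells of each library and 0.63 with every clause applied after thinning. It was higher in the MWA+TIGIT library in the other classes too, with log2 ratios of 0.52 in Arg1-low, 2.87 in hypoxic Arg1 and 0.47 in Selenop Mrc1 macrophages and 0.63 in cells outside the C1q macrophages. Cxcl10 was at 27.2 and 69.8 CPM (1.36, 1.00 to 1.73), or 2.91 with at least 20 Arg1 UMIs, and 74.7% and 76.8% of its UMIs lay in 5 cells. Hspb1, a small heat shock protein, was at 53.8 and 93.0 CPM, but its ratio of 0.79 became -0.38 without the 5 top cells of each library.

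Genes spread over more cells were also higher with MWA+TIGIT. Folr2, a folate receptor of tissue macrophages, was at 110 and 177 CPM (log2 ratio 0.68, 0.49 to 0.88), found in 147 and 225 cells. Gatm, which uses arginine to make the precursor of creatine, was at 446 and 708 CPM (0.67, 0.57 to 0.76), with ratios of 0.51, 0.93 and 0.30 in Arg1-low, hypoxic Arg1 and Selenop Mrc1 macrophages and 0.50 outside the C1q macrophages. Spp1 was at 751 and 1188 CPM (0.66, 0.59 to 0.73), whereas its ratio was 0.16 in Arg1-low, -0.15 in hypoxic Arg1 and -0.47 in Selenop Mrc1 macrophages. So Gatm was higher across all classes compared and Spp1 mainly in the Arg1 macrophages, a difference between classes that could not be tested with 1 library per group. Ly6a, a surface protein of the Ly6 family, was at 108 and 175 CPM, and Wdr89 had a ratio of 0.75, or 0.32 with the clauses applied after thinning. Of 19 lipid handling genes 3 were higher and 0 lower, namely Spp1, the lipase Lpl (log2 ratio 0.98) and the cholesterol exporter Abcg1 (0.67). Without the 5 top cells of each library the ratio of Spp1 was 0.57, under 1.5-fold, as was that of Abcg1 after thinning, at 0.38. The genes C3, the central complement protein (0.77), and Igf1, a growth factor (0.59), were higher as well.

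Inflammatory genes and chemokines of neutrophils and monocytes were lower with MWA+TIGIT. Of 21 inflammatory genes 4 were past 1.5-fold lower and 0 higher, and 12 had intervals below 0, beside 7.38% of all genes tested, with a median of -0.26 beside 0.02. Il1b was at 225 and 147 CPM (log2 ratio -0.62, -0.78 to -0.45), Il1a at 25.9 and 9.76 CPM (-1.41, -2.01 to -0.83), and Nlrp3, the inflammasome sensor, had a ratio of -0.74. Of 16 chemokine genes, 5 were lower and 2, Cxcl9 and Cxcl10, higher. Cxcl2, which attracts neutrophils, was at 1317 and 847 CPM (-0.64, -0.70 to -0.57) and Ccl2, a ligand of CCR2, at 863 and 550.3 CPM (-0.65, -0.73 to -0.57). Il1b was not lower in the other classes, with ratios of 0.11 in Arg1-low, 0.31 in hypoxic Arg1 and 0.32 in Selenop Mrc1 macrophages. Ccl2 was lower in all of them, with ratios of -0.54, -0.22 and -0.37, and outside the C1q macrophages with -0.30. In Cxcl1 (-0.89), Ccl12 (-0.64) and Ccl4 (-0.63) the ratio was past 1.5-fold too, and for Ccl4 it was -0.39 without the 5 top cells of each library.

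Immediate early genes, which tissue digestion can also induce, had 2 of 15 genes past 1.5-fold lower and 0 higher. By intervals 9 of the 15 lay below 0 and 3 above, beside 7.38% and 9.26% of all genes tested. Their median was -0.19 beside 0.02 over all genes. The 2 past 1.5-fold were Nr4a1, a nuclear receptor, at 142 and 76.0 CPM (log2 ratio -0.90, -1.12 to -0.69), and Rhob (-0.70). The part of the immediate early genes in the lower inflammatory genes was not tested. Rgcc, a regulator of the cell cycle, was at 131 and 64.2 CPM (-1.02, -1.26 to -0.79) and was lower in all 3 other classes, at -1.24 in Arg1-low, -0.73 in hypoxic Arg1 and -0.59 in Selenop Mrc1 macrophages. Thbs1 was at 129 and 64.7 CPM (-0.99, -1.22 to -0.76). Lyz1, a lysozyme, was at 104 and 37.8 CPM (-1.47, -1.76 to -1.18), but at -0.12 (-0.41 to 0.16) when the clauses were applied after thinning, and at 0.11 over all C1q macrophages. Lyz1 shares sequence with its neighbor Lyz2, so reads of the pair may be divided with error. Hes1, a Notch target (-0.76), Ets2, a transcription factor (-0.72), and Pde4b, a phosphodiesterase (-0.74, or -0.40 after thinning), were also lower.

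These genes were also compared between the libraries in the other cells. The share of all tested genes that went the same way there was not computed. The counts are therefore descriptions and not a result about the called genes. Of the 57 higher genes, 42 were also higher in Arg1-low, 40 of 55 in hypoxic Arg1 and 35 in Selenop Mrc1 macrophages and 51 outside the C1q macrophages, and of the 68 lower genes 49 of 67, 39 of 63, 46 of 66 and 41 were also lower. By size, of the 57 genes higher in the Arg1 macrophages, 6 were past 1.5-fold in Arg1-low, 5 in Selenop Mrc1 macrophages and 3 outside the C1q macrophages, and 22 of 55 in the smaller and more scattered hypoxic Arg1 class. Of the 68 lower genes, 9 of 67, 9 of 66 and 3 of 68 were, and 18 of 63 in the hypoxic class. Leaving out the 5 cells with most UMIs of a gene from each library, added after the data had been seen, 54 of the 57 higher and 60 of the 68 lower genes stayed past 1.5-fold.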

How the data were processed

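The authors sequenced droplet libraries (10x Genomics, version 3.1) of sorted CD45+ cells and deposited raw UMI counts for 32285 genes per barcode, not normalized, on the mouse build mm10 (GRCm38). The submitters' processing notes give Cell Ranger 6.1.1, and the header of the matrices Cell Ranger 4.0.0. No cell annotation of the authors was used.

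UMIs were summed per class and library and scaled to CPM (Python 3.11.15 with pandas 2.3.3, scipy 1.17.1 and numpy 2.4.6). Ratios have exact conditional binomial 95% intervals, CPM exact Poisson intervals and shares exact Clopper-Pearson intervals, all for counting error only. Genes of the rule were left out of the comparisons, as were genes under 20 UMIs in all or under 20 CPM on both sides. A gene was counted past 2-fold between classes only in the same direction in both libraries, and past 1.5-fold between libraries by its ratio. The genes named were, per comparison, the 8 highest and 8 lowest past the fold with at least 50 CPM, then from each list the most abundant and those past the fold. Lists, members and comparisons were chosen with earlier results of these data known.

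Alternatives were TMM factors (edgeR 4.0.16, R 4.3.3), no minimum in CPM, at most 5% mitochondrial UMIs, an Arg1 minimum of 20, clauses after thinning to 5000 UMIs, and no called doublets, which were called as 0.8% per 1000 barcodes by their neighbors among simulated doublets. The interval script was tested on simulated data.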

Additional observations from a re-analysis of the deposited data

How the results depend on the processing

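With every clause applied after thinning to 5000 UMIs, Arg1 macrophages were 7.41% and 11.9% of kept cells and 12.1% and 18.4% of C1q macrophages, 26 genes were past 2-fold higher than in Arg1-low and 375 than in hypoxic Arg1 macrophages, and 97 were past 1.5-fold higher with MWA+TIGIT. With an Arg1 minimum of 20 the shares were 1.69% and 2.4% and 4.46% and 5.61%, with 39 higher and 34 lower genes against Arg1-low macrophages and 123 and 187 between the libraries. There Hspb1 reversed, at -0.14 (-0.55 to 0.27) against 0.79. TMM factors gave 75 genes higher than in hypoxic cells. Without a minimum in CPM the counts were 92 and 226, 403 and 285, 230 and 408, and 1368 and 1097 against Arg1-low, hypoxic Arg1 and Selenop Mrc1 macrophages and between the libraries. The cause was not tested, beyond the genes and cells these settings add or drop. Of 64 summary values 40 stayed in range, and of 611 single-gene ratios 514 did, 96 moved without a change of sign and 1 reversed. No paired analysis was possible because each group had 1 library, and none could be left out. Depth limits genes such as Nos2, with 4 and 6 UMIs.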

Other observations

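A few genes outside the naming rule were picked after their values were seen. Rep15 had 88 UMIs in the Arg1 macrophages of the MWA library and 2 in those of the MWA+TIGIT library (log2 ratio -5.81), and 87 of the 88 lay in 1 cell, so the ratio describes that cell. Gm10076, a predicted gene, was at 1295 and 639 CPM in the Arg1 macrophages (-1.02) and at 1643 and 751 in the cells outside the C1q macrophages (-1.13), so its difference ran through the whole library. Ighm, the heavy chain of IgM, was at 7.21 and 7.45 CPM in Arg1 macrophages against 52.4 and 56.2 CPM in Arg1-low macrophages.

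The Arg1 macrophages and the hypoxic Arg1 macrophages differed in the checkpoint ligand Cd274 and in the polyamine enzymes. Smox, spermine oxidase, was at 49.5 against 153 CPM with MWA and 43.7 against 149 CPM with MWA+TIGIT, and Sat1, which acetylates spermidine and spermine, at 261 against 641 CPM and 308 against 743 CPM. Gatm was at 446 against 166 CPM and 708 against 316 CPM, in the other direction. Of 18 arginine and polyamine genes tested in this comparison, 2 were past 2-fold higher in Arg1 macrophages, Gatm and Srm, and 3 lower, Smox, Sat1 and Nos2.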
